A study of Mus musculus with 7 samples.

Results

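The 9 genes described here, *Esr1*, *Pgr*, *Foxa1*, *Gata3*, *Wnt4*, *Tnfsf11*, *Prom1*, *Greb1* and *Cited1*, belong to the hormone-sensing luminal cells of the mammary gland. They were chosen by name from the 37310 genes of the count table. Whole mammary glands of C57BL/6 mice were collected at lactation day 1 (L1) from 3 mice labelled WT and 4 mice labelled *Tardbp* KO. Both groups carried a WAP-Cre transgene, the WT mice with *Tardbp* wt/wt and the KO mice with *Tardbp* fl/fl. Cre removes exons 2 and 3 of this gene, which encodes the RNA-binding protein TDP-43. Cre is driven by the *Wap* promoter, active in luminal epithelial cells from the middle of pregnancy into lactation, and which cells of these glands had lost *Tardbp* was not measured in the libraries. Ages were not given in the sources used here.

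Hormone-sensing luminal cells line the ducts beside the milk-secreting alveolar cells and carry the receptors for estrogen and progesterone. Estrogen binds the receptor encoded by *Esr1*, whose access to chromatin is aided by the pioneer factor FOXA1 and by GATA3, and induces genes such as *Pgr* and *Greb1*. Progesterone acts on the same cells, which then release the paracrine signals WNT4 and RANKL (the product of *Tnfsf11*) to neighbouring cells that carry WNT receptors and RANK. These cells are known for driving side branching and alveolar growth in the cycle and in pregnancy, before the gland turns to milk secretion.

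Library totals lay between 36007737 and 42811337 counts, and values are CPM, counts scaled to the library size after TMM. Lane 4 held WT replicate 2 and KO replicates 3 and 4, and every other lane held a single library. *Tardbp* itself stood at 223, 178 and 159 CPM in WT and at 214, 176, 154 and 208 CPM in KO libraries, and since the table counts whole genes it does not check the deletion of 2 exons. Milk protein genes took 28.5% to 38.2% of the counts in WT libraries and 13.9% to 24.1% in KO libraries. All 8 of them lay lower in every KO library than in every WT library, an arrangement found in 9.62% of all genes tested. The study itself reported several milk protein genes of mammary epithelial cells as unaffected, by qRT-PCR at stages that included L1. KO replicates 1 and 3 held far more lymphocyte RNA than the other libraries. The summed level of 10 T-cell markers, none of them at 0 in any library, was 15.9 to 29.3 CPM in WT and 163, 29.5, 211 and 37.5 CPM in KO replicates 1 to 4. The 8 B-cell markers summed to 17.0 to 24.8 CPM in WT and to 319, 28.1, 431 and 101 CPM in the KO replicates, with *Pax5* at 0 in some libraries. All results on members are therefore also given without these 2 libraries where that turned a direction.

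TDP-43 binds RNA at runs of UG, so runs of at least 3 UG in the longest annotated coding transcript of each member were located on mouse assembly NCBIM37. Of the 9 members, 7 held such a run and 2, *Tnfsf11* and *Cited1*, held none, where 28.5% of the 15112 tested genes with such a transcript held none. This share and those below take no account of transcript length. The transcript had 8079 bases for *Greb1*, 2236 for *Tnfsf11* and 1090 for *Cited1*, beside a median of 2909 over these tested genes. The longest run of each of 6 members is shown within 30 bases of the transcript, written as DNA, with the run in capitals. Where runs tied in length, the first is shown. Whether the sites relate to the fold changes given below was not tested.

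Greb1: gctatgtaagTGTGTGTGTGcagttcaatc
Wnt4: gcctgagccttTGTGTGTGgctgcctctga
Pgr: ttttttaagtgtTGTGTGcacccatatttt
Foxa1: ttcaacactcatTGTGTGtattaccacaaa
Esr1: aatcaaggtaaaTGTGTGgaaggcatggtg
Prom1: tgttactggggcTGTGTGgaaagatctctt

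The run of *Greb1*, with 5 UG at chr12:16678341-16678350 on the minus strand, lay in the 3′ untranslated region (exon 33 of 33), and 9.49% of the tested genes had a run at least as long. *Wnt4* held 4 UG at chr4:136852996-136853003 on the plus strand in its last exon, exon 5, also in the 3′ untranslated region, a length reached by 23.4% of the tested genes. The runs of *Pgr* (chr9:8965341-8965346, plus strand) and *Foxa1* (chr12:58642802-58642807, minus strand) had 3 UG and lay in the 3′ untranslated region as well. *Esr1*, *Prom1* and *Gata3*, all on the minus strand, held several runs of 3 UG each, equal in length. The first run of *Esr1* (chr10:5377364-5377369), *Prom1* (chr5:44485811-44485816) and *Gata3* (chr2:9790517-9790522) lay in the coding sequence. Of the UG in all runs, *Esr1* had 6 in the coding sequence and 0 in the 3′ untranslated region. *Prom1* had 12 and 3, and *Gata3* had 3 and 6. A run of 3 UG was also the median longest run over the tested genes. These matches describe the letters and are no measurement of binding.

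The 250 bases before the start of 3 members are shown because they hold or lack the motifs of the receptors and factors named above. The sequences come from RefSeq's GRCm38.p6 promoters and were each found once in NCBIM37, whose coordinates are given. Capitals mark the estrogen receptor half-site GGTCA and the FOXA1 motif TGTTTAC on either strand.

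Cited1: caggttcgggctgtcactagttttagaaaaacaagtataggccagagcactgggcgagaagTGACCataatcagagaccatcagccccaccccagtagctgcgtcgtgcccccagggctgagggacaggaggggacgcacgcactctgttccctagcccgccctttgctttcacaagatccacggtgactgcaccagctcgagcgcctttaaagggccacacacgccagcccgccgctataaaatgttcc
Foxa1: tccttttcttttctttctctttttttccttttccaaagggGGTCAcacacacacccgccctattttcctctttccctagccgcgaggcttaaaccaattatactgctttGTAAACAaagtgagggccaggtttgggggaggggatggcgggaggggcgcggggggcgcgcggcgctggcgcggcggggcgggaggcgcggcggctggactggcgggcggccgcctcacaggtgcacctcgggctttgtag
Pgr: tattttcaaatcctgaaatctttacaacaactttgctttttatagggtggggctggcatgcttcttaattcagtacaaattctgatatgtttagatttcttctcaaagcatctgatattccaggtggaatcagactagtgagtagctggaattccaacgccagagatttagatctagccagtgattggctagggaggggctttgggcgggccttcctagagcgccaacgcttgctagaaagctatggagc

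These stretches are chrX:99447521-99447770 (minus strand) for *Cited1*, chr12:58647099-58647348 (minus strand) for *Foxa1* and chr9:8899583-8899832 (plus strand) for *Pgr*, whose RefSeq start stands at −586 from the nearest start in the GENCODE annotation. All 9 members matched the RefSeq table, with 14 promoters of 250 bases before and 50 bases after a start. GGTCA was found in 8 of these 14 promoters, belonging to 6 members, and in 40.5% of all 32851 promoters of the table. The full estrogen response element GGTCANNNTGACC, which contains that half-site on both strands, was in no member and in 0.0700% of all promoters. TGTTTAC was found in the *Foxa1* promoter and in 3.65% of all promoters. The progesterone receptor half-site TGTTCT was in 1 of 2 *Prom1* promoters and in 19.0% of all, and the GATA motif AGATAA was in no member and in 11.2% of all. No match in a window says nothing about binding elsewhere.

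The 9 members spanned a wide range of levels in the gland, here compared per gene length as RPKM computed from the scaled counts. *Gata3*, a transcription factor of all luminal cells and also of T cells, stood highest with a median of 31.2 RPKM over the 7 libraries (17.3 to 53.7), above the range of every other member. *Cited1*, a coactivator of the estrogen receptor, followed at 3.50 RPKM (1.89 to 5.54), *Foxa1* at 2.28 RPKM (1.14 to 3.52), *Wnt4* at 2.01 RPKM (1.56 to 8.90) and *Esr1* at 1.15 RPKM (0.516 to 1.66). *Prom1*, which encodes a surface glycoprotein, stood at 0.533 RPKM (0.313 to 1.23), *Pgr* at 0.246 RPKM (0.156 to 0.939), *Tnfsf11* at 0.0716 RPKM (0.0206 to 0.641) and *Greb1* at 0.0192 RPKM (0 to 0.0582). Below *Gata3*, each member's range overlapped that of the next. Within single libraries the order was firmer for some neighbours, since *Wnt4* exceeded *Esr1*, *Esr1* exceeded *Prom1* and *Tnfsf11* exceeded *Greb1* in 7 of 7 libraries, while *Foxa1* exceeded *Wnt4* in 4 of 7. The mean RPKM of *Gata3* was above that of 91.9% of the genes tested, that of *Esr1* above 30.1% and that of *Pgr* above 15.9%.

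**Figure D1:**
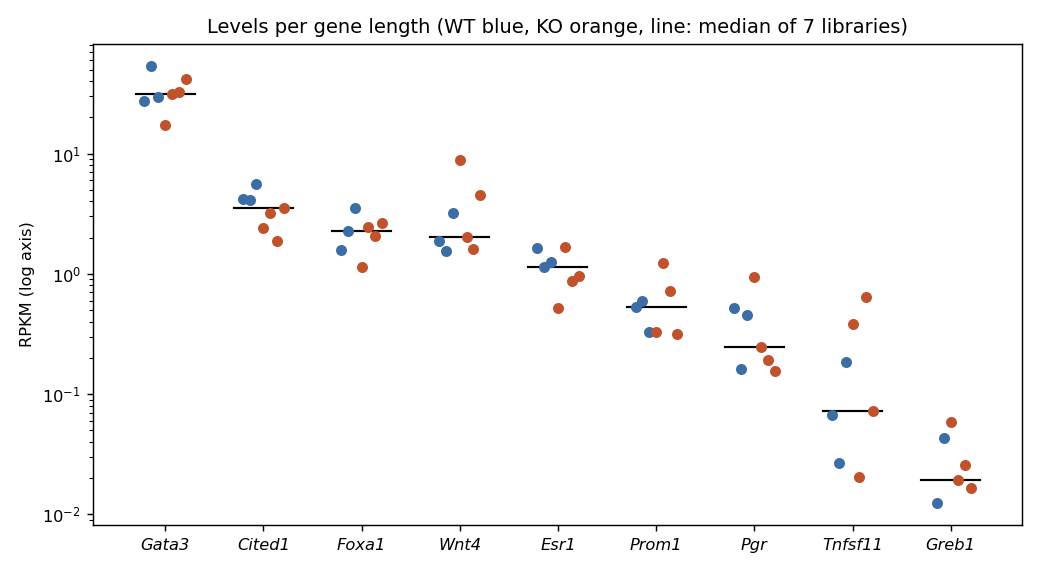
Level per gene length (RPKM, log axis) of each member in 7 libraries, with WT in blue, KO in orange and the median as a line; *Greb1* in WT replicate 1, at 0, cannot be drawn on this axis. *Gata3* lies above every other member, and below it neighbouring ranges overlap.

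Whether loss of *Tardbp* changed these genes was tested with edgeR's quasi-likelihood test over 17175 genes, which all 9 members entered, at the limits of the study, which are an adjusted p of less than 0.01 and a change beyond 1 on the log2 scale. No member was called, against 0.00% of all genes tested, and the lowest adjusted p of any gene was 0.0165. With no gene called at all, this result does not set the members apart. The study itself reported differentially expressed genes at these limits with edgeR, without naming the test used. At an unadjusted p under 0.05, 1 member (*Cited1*) was lower in KO libraries and none was higher, where 10.7% of all genes were lower and 10.7% higher. *Cited1* was also the single member whose KO libraries all lay below the WT libraries, an arrangement found in 9.62% of all genes, and no member had all KO libraries above, found in 9.07% of all genes. The exact test of edgeR called 2.48% and DESeq2's Wald test 3.33% of the genes at the same limits, and no member with either. The median log2 fold change was 0.02 over the members and 0.05 over all genes, with 5 members above and 4 below 0. In these whole glands, fewer cells of a type and less RNA per cell cannot be told apart.

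**Figure D2:**
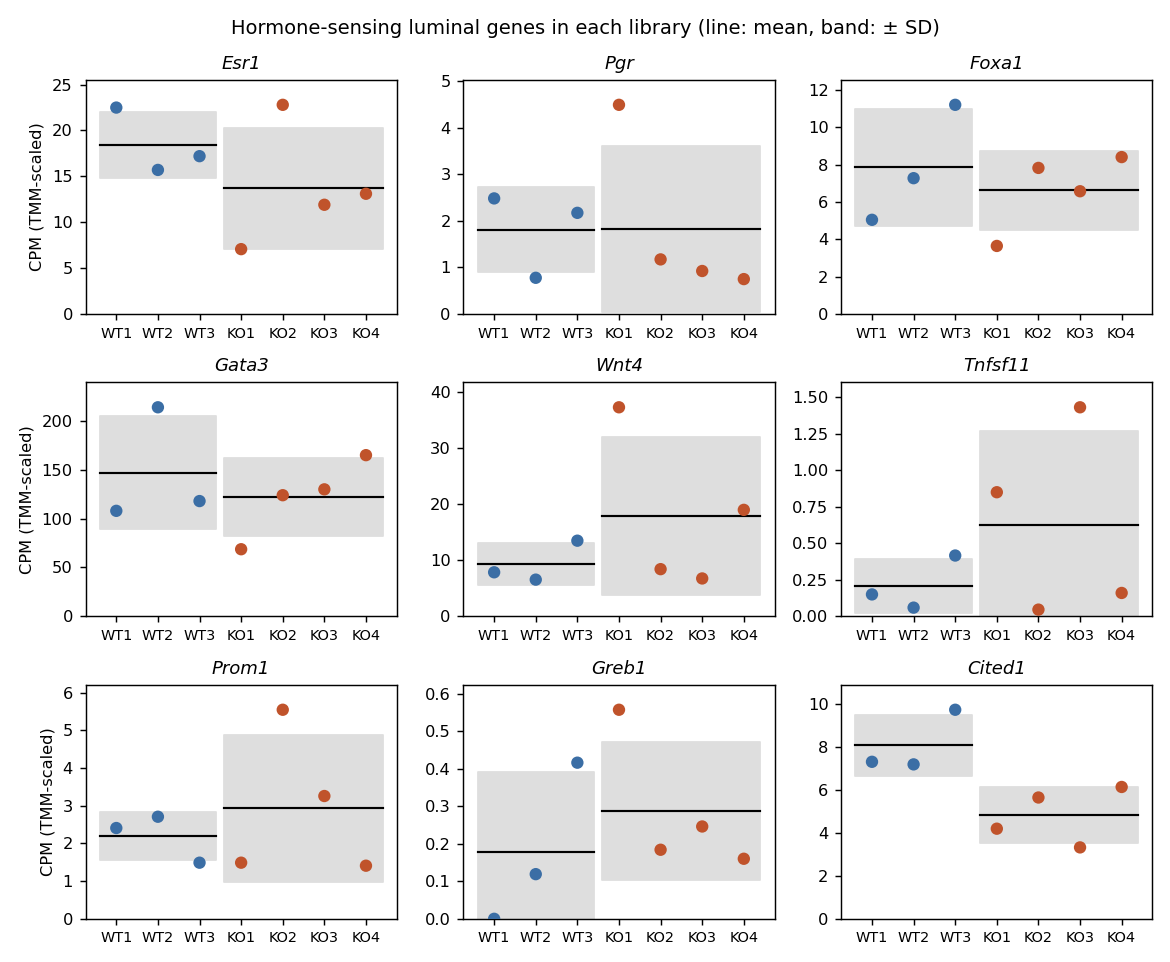
Level of each member in CPM (TMM-scaled) in WT replicates 1 to 3 (blue) and KO replicates 1 to 4 (orange), with the group mean as a line and its SD as a band. The 4 *Cited1* values in KO libraries lie below the 3 in WT libraries, the other 8 members overlap, and KO replicate 1 holds the highest *Pgr*, *Wnt4* and *Greb1* and the lowest *Esr1*, *Foxa1* and *Gata3*.

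The estrogen receptor gene *Esr1* (chr10:5340927-5734948, minus strand) stood at 22.5, 15.7 and 17.2 CPM in WT replicates 1 to 3 and at 7.06, 22.8, 11.9 and 13.1 CPM in KO replicates 1 to 4. KO replicate 2 was the highest library of all, and the other 3 KO libraries lay below every WT library. The groups thus overlapped, at 18.4 ± 3.58 CPM in WT (SD, n = 3) and 13.7 ± 6.57 CPM in KO libraries (SD, n = 4). Its log2 fold change was −0.43 (standard error, SE, 0.345, adjusted p = 0.523), and a 2-sided exact permutation test gave p = 0.314, the design allowing none under 0.0286. Within lane 4, which has 1 WT and 2 KO libraries and no test, the log2 fold change was −0.32, and without KO replicates 1 and 3 it was −0.04.

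The pioneer factor gene *Foxa1* (chr12:58641618-58647108, minus strand) stood at 5.04, 7.27 and 11.2 CPM in WT and at 3.64, 7.82, 6.57 and 8.40 CPM in KO libraries. WT replicate 3 was highest and KO replicate 1 lowest, and the rest intermixed. Its log2 fold change of −0.25 (SE 0.352, adjusted p = 0.729) turned to 0.10 without WT replicate 3, to 0.05 without KO replicates 1 and 3, and to 0.03 within lane 4. *Gata3* (chr2:9778705-9811661, minus strand) stood at 108, 214 and 118 CPM in WT and at 68.7, 124, 130 and 165 CPM in KO libraries. Here WT replicate 2 was highest and KO replicate 1 again lowest. The log2 fold change of *Gata3* was −0.27 (SE 0.323, adjusted p = 0.679), and −0.54 within lane 4, and it turned to 0.10 without WT replicate 2. Other genes cover 5.83% of its exon bases, and reads shared with them were not counted.

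The progesterone receptor gene *Pgr* (chr9:8900419-8965425, plus strand) had 66, 26 and 73 reads in WT and 169, 51, 45 and 28 reads in KO libraries. On the CPM scale these were 2.48, 0.775 and 2.17 against 4.49, 1.17, 0.921 and 0.747. KO replicate 1 was the highest of the 7 libraries, and the other 3 KO libraries lay among or below the WT values. The log2 fold change of 0.02 (SE 0.684, adjusted p = 0.993) became −0.93 without KO replicate 1 (adjusted p = 0.320), −0.90 without KO replicates 1 and 3 and −0.35 without WT replicate 2, and it was 0.09 within lane 4. Per gene length, *Pgr* stood at 0.316, 0.142 and 0.362 times the *Esr1* level in WT and at 1.82, 0.148, 0.221 and 0.163 times in KO libraries. KO replicate 1 was thus the one library of these 7 in which *Pgr* exceeded *Esr1*.

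*Wnt4* (chr4:136833404-136855641, plus strand), a ligand that progesterone induces, stood at 7.86, 6.55 and 13.5 CPM in WT and at 37.3, 8.42, 6.76 and 19.0 CPM in KO libraries. KO replicates 1 and 4 were above every WT library and KO replicates 2 and 3 were within the WT range. The log2 fold change was 0.94 (SE 0.574, adjusted p = 0.386, exact permutation p = 0.371), it was 0.79 within lane 4, and it dropped to 0.29 without KO replicate 1. Beside these values, 8 myoepithelial markers, none of them at 0, summed to 3234 CPM in KO replicate 1. They summed to 1080 to 1424 CPM in the other KO libraries and to 1386 to 2168 CPM in WT. None of the 8 had an unadjusted p under 0.05 between genotypes, where 10.7% of all genes were lower and 10.7% higher. In KO replicate 1, *Acta2* (1442 CPM), *Myh11* (568 CPM), *Tagln* (543 CPM) and *Cnn1* (219 CPM) made up most of the sum and lay above every WT library. *Krt17* (86.6 CPM) and *Trp63* (20.5 CPM) did so too, while *Krt5* (165 CPM) and *Krt14* (191 CPM) lay within the WT range. The part of myoepithelial RNA in the *Pgr* and *Wnt4* values of KO replicate 1 was not tested.

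*Tnfsf11* (chr14:78677252-78707850, minus strand), the gene of RANKL, was close to the limit of detection, with 4, 2 and 14 reads in WT and 32, 2, 70 and 6 reads in KO libraries. In CPM these were 0.150, 0.0596 and 0.416 against 0.849, 0.0460, 1.43 and 0.160. The highest values were those of KO replicates 3 and 1, while KO replicates 2 and 4 lay within or below the WT range. Its log2 fold change of 1.56 (SE 1.08, adjusted p = 0.449) turned to −1.03 without these 2 libraries, was 2.32 within lane 4, and lay between 0.72 and 2.58 when single libraries were left out. Activated T cells also express RANKL, and KO replicates 1 and 3 were the libraries with the highest summed T-cell markers, none of the 10 at 0. At an unadjusted p under 0.05, 9 of the 10 were higher in KO libraries, where 10.7% of all genes were higher. The part of lymphocyte RNA in the *Tnfsf11* values was not tested.

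*Greb1* (chr12:16677421-16807692, minus strand), an estrogen-induced cofactor of the receptor, had 0, 4 and 14 reads in WT and 21, 8, 12 and 6 reads in KO libraries. The count of 0 in WT replicate 1 allows a level of up to 0.113 CPM if counts are independent. Mates counted separately, so the true limit can be higher. Its log2 fold change was 0.62 (SE 0.893, adjusted p = 0.733), a difference not detectable at this depth. When single libraries were left out it lay between 0.09 and 2.10, and it was −0.09 without KO replicates 1 and 3 and 0.55 within lane 4. *Prom1* (chr5:44384864-44493271, minus strand) stood at 2.41, 2.71 and 1.49 CPM in WT and at 1.49, 5.55, 3.26 and 1.41 CPM in KO libraries, so that the KO values lay on both sides of the WT values. The log2 fold change of 0.41 (SE 0.512, adjusted p = 0.688) turned to −0.10 without KO replicate 2, and it was −0.33 within lane 4.

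*Cited1* (chrX:99442720-99447520, minus strand) stood at 7.30, 7.18 and 9.72 CPM in WT and at 4.19, 5.64, 3.32 and 6.13 CPM in KO libraries. Every KO value was under every WT value, with means of 8.06 ± 1.43 CPM (SD, n = 3) and 4.82 ± 1.30 CPM (SD, n = 4). The log2 fold change was −0.74 (SE 0.265, unadjusted p = 0.0207, adjusted p = 0.159), and the exact permutation p was 0.0571. It was −0.66 within lane 4 and lay between −0.90 and −0.59 when single libraries were left out. Without KO replicates 1 and 3 it was −0.45 (adjusted p = 0.505). Over the alternatives tried, its adjusted p lay between 0.0321 and 0.505.

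**Figure D3:**
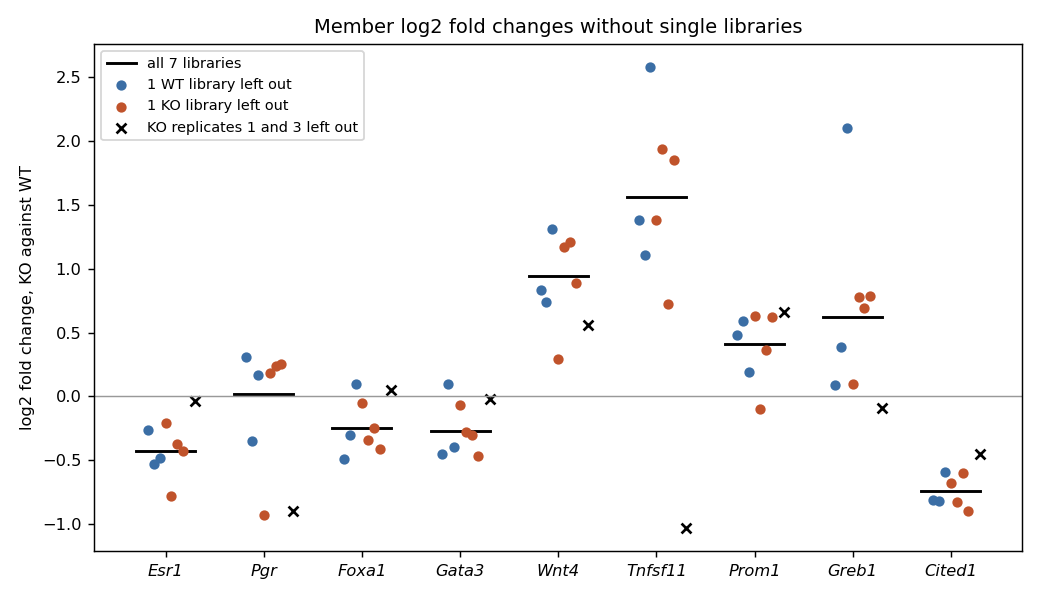
Log2 fold change (KO against WT) of each member with all 7 libraries (line), with 1 WT (blue) or 1 KO (orange) library left out, and with KO replicates 1 and 3 both left out (cross). *Esr1*, *Wnt4* and *Cited1* keep their sign at every point, *Pgr* lies at −0.93 without KO replicate 1, and *Tnfsf11* to −1.03 without KO replicates 1 and 3.

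Other scalings of the libraries shifted the median of all genes and the members with it, by similar but not equal amounts. Scaled by library size only, the median of all genes moved from 0.05 to 0.42, *Foxa1* to 0.09 and *Gata3* to 0.08. Scaled by 8 markers of luminal epithelium, the median of all genes moved to −0.60, *Cited1* to −1.43 (adjusted p = 0.0321), *Esr1* to −1.10 (adjusted p = 0.0946), *Foxa1* to −0.91, *Gata3* to −0.85 and *Pgr* to −0.74. These markers, none at 0, summed to 1741 to 2835 CPM in WT and to 2719 to 3827 CPM in KO libraries. At an unadjusted p under 0.05, 3 of 8 were higher in KO libraries and none lower, where 10.7% of all genes were higher and 10.7% lower. Relative to the median of all genes, each member kept its side with TMM, library size and luminal marker scaling. The differences from that median were −0.48, −0.45 and −0.50 for *Esr1*, −0.30, −0.32 and −0.31 for *Foxa1*, −0.32, −0.34 and −0.25 for *Gata3*, and −0.79, −0.81 and −0.84 for *Cited1*. They were −0.03, −0.01 and −0.14 for *Pgr*, which thus stood close to the median, and 0.36, 0.40 and 0.48 for *Prom1*.

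**Figure D4:**
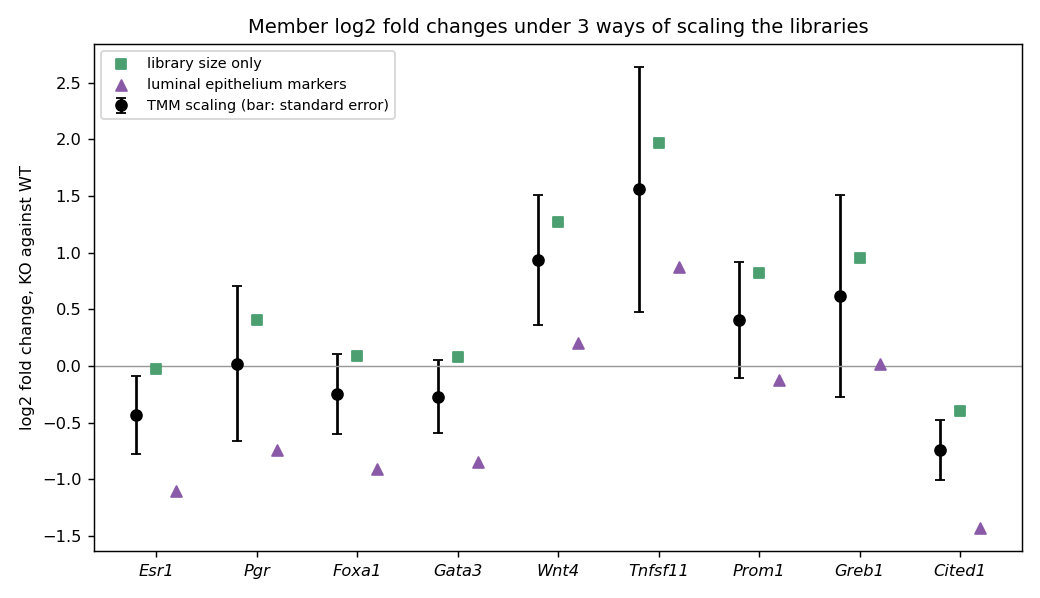
Log2 fold change (KO against WT) of each member with TMM scaling (circle, bar is the standard error), scaling by library size only (square) and scaling by luminal epithelium markers (triangle). The 3 scalings shift all members together, as the median of all genes goes from 0.05 to 0.42 and −0.60, and relative to that median each member keeps its side.

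For 4 members, the genes with the most alike pattern were sought by Pearson's r of log2 CPM over the 7 libraries, as a description. Those of *Esr1* were *Hsd3b7* (r = 0.982), *Mtfr1* (r = 0.972) and *Rassf6* (r = 0.962). *Pgr* was most like *Mcam* (r = 0.985), *Ephb2* (r = 0.984) and *Ppm1l* (r = 0.984), all of them highest in KO replicate 1. *Foxa1* was most like *Vkorc1* (r = 0.974), *Nudt7* (r = 0.959) and *2810468N07Rik* (r = 0.945), and *Prom1* most like *Gpr19* (r = 0.971), *Wnt16* (r = 0.964) and *Ighv1-42* (r = 0.962). These were the 3 highest r among all genes tested, and libraries share depth and tissue makeup in each of them.

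Of 9 other markers of hormone-sensing luminal cells, 8 could be tested, 1 was higher and 2 were lower in KO libraries at an unadjusted p under 0.05, where 10.7% of all genes were higher and 10.7% lower, and the median log2 fold change was −0.07. *Prlr*, the prolactin receptor gene, stood at 166, 108 and 116 CPM in WT and at 49.8, 93.2, 87.6 and 89.9 CPM in KO libraries, without overlap and with a log2 fold change of −0.70 (SE 0.245, adjusted p = 0.154). *Stc2*, which encodes the secreted glycoprotein stanniocalcin 2, stood at 68.1, 39.1 and 57.0 CPM in WT and at 26.4, 15.8, 14.0 and 22.2 CPM in KO libraries, with a log2 fold change of −1.48 (SE 0.261, adjusted p = 0.0678). *Ly6a*, which encodes a surface antigen (chosen after its values were seen), was the higher one with 47.8, 65.2 and 68.7 CPM in WT and 62.6, 91.4, 100 and 171 CPM in KO libraries (log2 fold change 0.81, adjusted p = 0.185). *Areg*, the gene of amphiregulin, which carries the estrogen signal from these cells to the stroma, fell under the filter with 2, 4 and 61 reads in WT and 4, 6, 2 and 4 reads in KO libraries. WT replicate 3 was thus the one library of these 7 with more than a few *Areg* reads.

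Of 11 other hormone receptor genes, 10 were tested, 1 was higher and 3 were lower at an unadjusted p under 0.05, beside 10.7% of all genes each way. All KO libraries lay below WT in 2 of the 10 and above WT in 1, against 9.62% and 9.07% of all genes. *Nr3c2*, the mineralocorticoid receptor gene, lay lower in all KO libraries (7.54 ± 2.33 CPM, SD, n = 4) than in WT (13.7 ± 2.0 CPM, SD, n = 3), and *Thra*, a thyroid hormone receptor gene, lay higher (53.4 ± 7.50 against 36.0 ± 3.63 CPM). Their log2 fold changes were −0.86 (adjusted p = 0.132) and 0.57 (adjusted p = 0.0998). Among 16 coregulators of the receptors, 1 was higher and 1 lower (10.7% of all genes each way), namely the coactivator gene *Ncoa2* with a log2 fold change of 0.53 (adjusted p = 0.0998) and *Fkbp4*, a cochaperone of the progesterone receptor, with −0.65 (adjusted p = 0.136). Among 15 luminal transcription factors 2 were higher and 2 lower, close to the 10.7% of all genes each way. *Elf5*, the factor of alveolar secretory cells, stood at 1108, 1017 and 1048 CPM in WT and at 434, 798, 718 and 864 CPM in KO libraries, and *Elf3*, a related epithelial factor, had a log2 fold change of 0.60 (adjusted p = 0.168).

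Of 16 estrogen response genes, 12 were tested, 2 were higher and 3 lower (10.7% of all genes each way), and the median was 0.15. *Bcl2*, which restrains cell death, stood at 5.94, 8.91 and 6.84 CPM in WT and at 17.7, 22.8, 24.6 and 11.4 CPM in KO libraries, all above WT, with a log2 fold change of 1.40 (SE 0.289, adjusted p = 0.0748). *Igf1r*, the IGF1 receptor gene, showed the same arrangement with a log2 fold change of 0.95 (adjusted p = 0.140). The lower genes were *Stc2*, given above, and, chosen after their values were seen, *Ccnd1* and *Agr2*. *Ccnd1*, the cyclin D1 gene, stood at 153, 40.5 and 87.7 CPM in WT and at 57.5, 24.9, 26.7 and 26.1 CPM in KO libraries, with KO replicate 1 inside the WT range and the rest below it (log2 fold change −1.47, adjusted p = 0.123). *Agr2* was at or under 1.13 CPM in every library (log2 fold change −2.39, adjusted p = 0.141). Of 9 progesterone response genes, 7 were tested, 1 was higher and 1, again *Ccnd1*, was lower (10.7% of all genes each way), and the median was −0.75. That median was −0.15 without WT replicate 3 and −1.17 without KO replicate 1. *Rspo1*, an enhancer of WNT signalling, stood at 3.16, 3.84 and 3.39 CPM in WT and at 12.1, 7.20, 3.54 and 8.16 CPM in KO libraries, with a log2 fold change of 1.16 (SE 0.379, adjusted p = 0.139). KO replicate 3 lay within the WT range and the other 3 KO libraries above it.

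In the RANK pathway, the target of RANKL, all 16 genes were tested, 6 were higher and 4 lower at an unadjusted p under 0.05 (10.7% of all genes each way), none was called, and the median was 0.10. All KO libraries lay above WT in 5 genes and below WT in 3, where the shares over all genes were 9.07% and 9.62%. The receptor gene *Tnfrsf11a* stood at 105, 120 and 115 CPM in WT and at 86.2, 107, 102 and 153 CPM in KO libraries, a log2 fold change of −0.01 (adjusted p = 0.979). *Tnfrsf11b*, the gene of the decoy receptor osteoprotegerin, was at 2.11, 0.179 and 2.76 CPM in WT and at 0.929, 0.644, 0.614 and 0.267 CPM in KO libraries, with overlap. The members whose KO libraries all lay above WT were *Relb* (log2 fold change 1.56, adjusted p = 0.0992), *Nfkb2* (1.16, adjusted p = 0.143), *Map3k14* (0.93, adjusted p = 0.0851), *Traf6* (0.66, adjusted p = 0.136) and *Nfkb1* (0.50, adjusted p = 0.131), which encode NF-κB subunits, an activating kinase and an adaptor. Those below WT were *Id2* (−1.43, adjusted p = 0.0972), a RANK target in the alveoli, *Elf5* (−0.59, adjusted p = 0.214) and *Chuk* (−0.42, adjusted p = 0.161), which encodes the kinase IKKα. *Relb* and *Nfkb2* were highest in KO replicate 1, at 94.3 and 203 CPM. KO replicate 3, which held the most T- and B-cell RNA, stood at 38.9 and 77.9 CPM, and KO replicate 4 at 38.4 and 95.9 CPM. KO replicate 2, with the lowest T- and B-cell sums of the KO libraries, was the lowest of them here too, at 25.2 and 58.3 CPM. The part of lymphocyte RNA in these values was not tested.

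In the WNT pathway, the target of WNT4, 29 of 30 genes were tested, 6 were higher and 2 lower (10.7% of all genes each way), none was called, and the median was 0.12. *Rnf43*, which removes WNT receptors from the surface, lay lower in all KO libraries (39.4 ± 12.5 against 68.3 ± 3.98 CPM, log2 fold change −0.80, adjusted p = 0.120), as did *Wls*, the carrier of secreted WNT proteins (−0.50, adjusted p = 0.182). *Tcf7*, a WNT effector that is also a T-cell factor, stood at 3.57, 1.91 and 1.96 CPM in WT and at 48.7, 4.39, 54.1 and 5.84 CPM in KO libraries, highest in the 2 libraries with the most lymphocyte RNA, with a log2 fold change of 3.52 (adjusted p = 0.0972). The other higher genes were *Rspo1*, given above, and, chosen after their values were seen, *Lef1* (4.70, adjusted p = 0.103), which like *Tcf7* is a T-cell factor, *Tcf7l1* (0.67, adjusted p = 0.165), the feedback target *Axin2* (0.64, adjusted p = 0.199) and the receptor gene *Fzd7* (0.56, adjusted p = 0.183). Of 10 other mammary WNT ligands, 9 were tested, 2 were higher and 1 lower (10.7% of all genes each way), none without overlap. In the amphiregulin pathway, 7 of 8 genes were tested and 3 were higher (10.7% of all genes), among them *Erbb3*, a receptor of the EGF family (log2 fold change 0.92, adjusted p = 0.106), and *Adam17*, the protease that sheds amphiregulin (0.32, adjusted p = 0.161), both with all KO libraries above WT (9.07% of all genes).

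**Figure D5:**
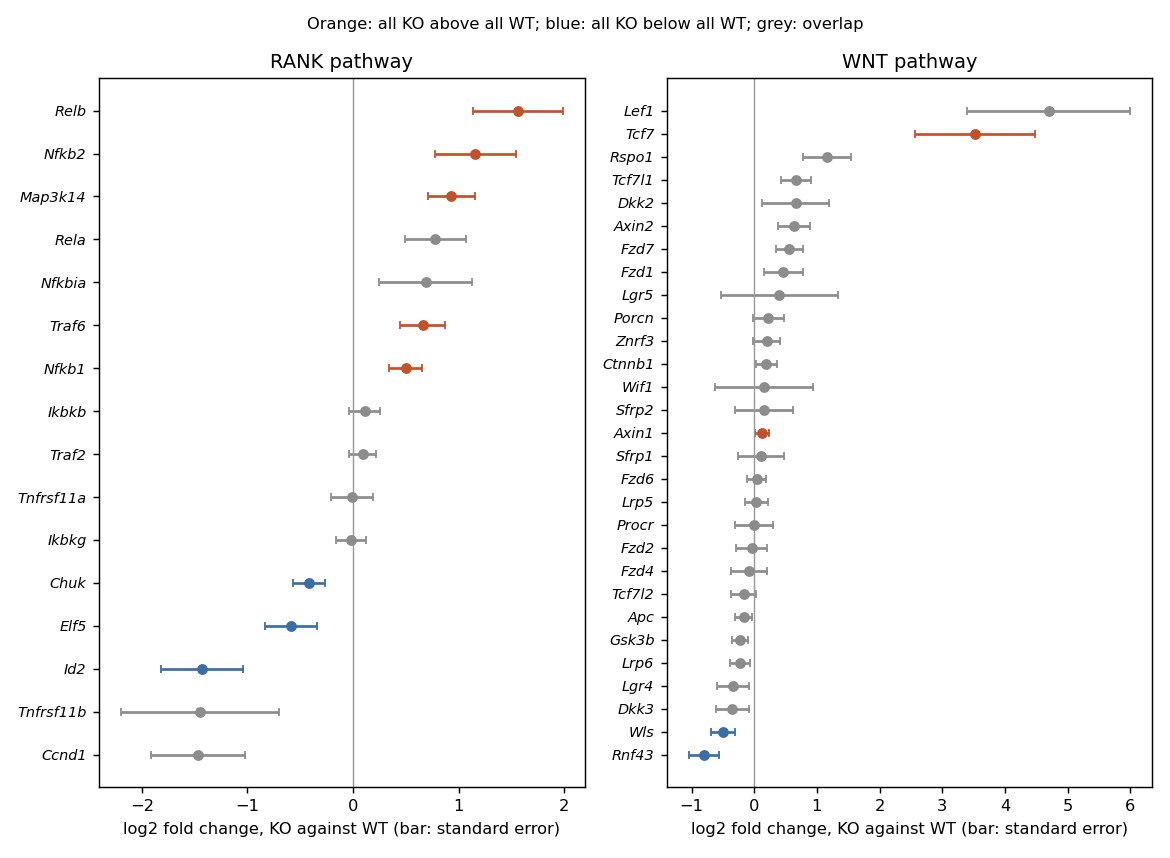
Log2 fold change (KO against WT, bar is the standard error) of the genes of the RANK pathway (left) and the WNT pathway (right), with orange for genes whose KO libraries all lie above WT, blue for those all below and grey for overlap. *Tnfrsf11a*, the RANKL receptor gene, lies at −0.01, *Relb* at 1.56 and *Rnf43* at −0.80.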

How the data were processed

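The authors extracted RNA of whole glands with Trizol, prepared libraries with an Illumina TruSeq RNA kit, mapped paired-end reads with STAR (version 2.5.2a in the submitters' processing notes) to NCBIM37 and counted exons of GENCODE genes with featureCounts. The deposited values are whole-number read counts per gene without normalization. Counting used neither strand nor pairing, so mates counted separately, and reads over several genes were left out. The header names 1 further library that was not analysed here.

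After removal of 37 mitochondrial and 580 ribosomal genes, 17175 genes reached 5 counts in 4 or more of the 7 libraries and were tested with edgeR 4.0.16 in R 4.3.3 (TMM, quasi-likelihood test, Benjamini-Hochberg adjustment over all genes tested). RPKM were computed from the scaled counts and the exon length of the gene. Exact permutation tests used log2 of CPM with 1 added over 35 arrangements of the labels. The libraries came from 3 WT and 4 KO mice, and p-values measure the spread between mice of a genotype, which includes technical spread. Members and gene lists were chosen with earlier results of these data known. Genes were named by a rule: all members, genes of the pathway lists with unadjusted p under 0.05 and no overlap between genotypes (at most 6 per list), the partners *Tnfrsf11a*, *Tnfrsf11b*, *Rspo1*, *Areg*, *Prlr* and *Elf5*, and the 3 genes most alike to each of 4 members. Alternatives were other normalizations, filters, tests (among them DESeq2 1.42.0), thresholds, a replicate block, and libraries left out. Python 3.11.15 with scipy 1.17.1, numpy 2.4.6 and pandas 2.3.3 was used for tables.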

Additional observations from a re-analysis of the deposited data

Results flagged for a closer look

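*Pgr* stood at 4.49 CPM in KO replicate 1, far from the other 3 KO libraries, with a gap to the nearest of them of 0.886 of the group's range above the 95% critical value of Dixon's test for 4 samples. The cause was not tested. It was the one such value among the 9 members, each of which was looked at on both sides, and chance alone gives about 1 in 20 groups such a gap.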

How the results depend on the processing

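No member was called under any of the alternatives run, while the number of genes called, 0 in the reported fit, was 153 with luminal epithelium scaling, 1 without a filter, 426 with edgeR's exact test, 572 with DESeq2, and 1 at an adjusted p under 0.05 with or without the fold limit. The members' median log2 fold change of 0.02 was 0.41 with library size only, −0.74 with luminal epithelium scaling, −0.23 with at least 10 counts in every library (which drops *Tnfsf11* and *Greb1*), and −0.10 to 0.25 when single libraries were left out. Of 196 member values under alternatives, 15 had the other sign. Of these, 4 came from luminal epithelium or library size scaling, which move the median of all genes from 0.05 to −0.60 and 0.42, and relative to that median they kept their side, and 11 came from other alternatives. The 15 were *Pgr* with luminal epithelium scaling (−0.74), without WT replicate 2 (−0.35), without KO replicate 1 (−0.93) and without KO replicates 1 and 3 (−0.90), *Foxa1* with library size only (0.09), without WT replicate 3 (0.10), without KO replicates 1 and 3 (0.05) and in lane 4 (0.03), and *Gata3* with library size only (0.08) and without WT replicate 2 (0.10). The others were *Tnfsf11* (−1.03) and *Greb1* (−0.09) without KO replicates 1 and 3, and *Prom1* with luminal epithelium scaling (−0.12), without KO replicate 2 (−0.10) and in lane 4 (−0.33). When single libraries were left out, values lay between −0.93 and 0.31 for *Pgr*, −0.49 and 0.10 for *Foxa1*, −0.47 and 0.10 for *Gata3*, and −0.10 and 0.63 for *Prom1*. The cause was not tested.

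With library size only, where the median of all genes was 0.42, the list medians were 0.31 for other hormone-sensing markers, 0.22 for hormone receptors, 0.49 for coregulators, 0.46 for luminal transcription factors, 0.52 for estrogen response genes, 0.47 for RANK, 0.49 for WNT, 0.62 for amphiregulin, −0.40 for progesterone response genes and 0.68 for other WNT ligands, and 2 hormone receptors and 8 coregulators had an unadjusted p under 0.05. Without KO replicates 1 and 3 these genes numbered 2 hormone receptors, 4 coregulators, 2 luminal transcription factors, 3 estrogen response genes, 6 RANK genes, 5 WNT genes and 1 other WNT ligand, with medians of −0.13 for estrogen response genes and −0.25 for other WNT ligands. With single libraries left out, they numbered 1 to 4 other hormone-sensing markers, 2 to 5 hormone receptors, 2 to 4 coregulators, 0 to 3 luminal transcription factors, 3 to 7 estrogen, 2 to 5 progesterone, 5 to 10 RANK and 4 to 7 WNT genes, 0 to 2 other WNT ligands and 1 to 3 amphiregulin genes, and the medians were −0.29 to 0.01 for other hormone-sensing markers, −0.28 to −0.07 for hormone receptors, 0.06 to 0.23 for coregulators, −0.06 to 0.31 for luminal transcription factors, 0.08 to 0.21 for estrogen, −1.17 to −0.15 for progesterone, 0.05 to 0.16 for RANK and −0.05 to 0.17 for WNT genes, 0.04 to 0.55 for other WNT ligands and 0.15 to 0.32 for amphiregulin genes. RANK genes dropped from 10 to 5 without WT replicate 1, and luminal transcription factors from 4 to 0 without WT replicate 3.

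Same-numbered WT and KO libraries did not deviate together throughout (r = 0.351, 0.0941 and −0.0580 for numbers 1 to 3). With so few libraries per genotype, these values cannot decide whether the numbers pair them, and the fit did not use pairs. With the replicate block, 0 members and 0 genes were called and the members' median was 0.09. At counts as low as those of *Tnfsf11* and *Greb1*, the depth limits what could be detected.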

Other observations

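Markers of the luminal progenitor, the other luminal lineage beside the hormone-sensing cells, differed in direction. Of 7, 2 were higher in KO libraries at an unadjusted p under 0.05 and 1, *Elf5*, was lower, where 10.7% of all genes were higher and 10.7% lower. The log2 fold change was positive in 5 and negative in 2, with a median of 0.56. *Kit*, a receptor kinase of these progenitors (chosen after its values were seen), stood at 32.2, 137 and 49.3 CPM in WT and at 263, 196, 154 and 208 CPM in KO libraries, a log2 fold change of 1.49 (SE 0.456, adjusted p = 0.125, edgeR). *Itga2* (also chosen after its values were seen) had a log2 fold change of 1.02 (adjusted p = 0.0941). KO replicate 1 was the library with the highest *Pgr*. The median deviation of the progesterone response genes from their WT mean (log2 of CPM with 0.1 added) was 0.51 there. In KO replicates 2 to 4 it was −0.70, −0.94 and −0.89, and in WT −0.12, −0.64 and 0.10. The genes that follow, except *Rspo1*, were chosen after their values were seen. *Tph1*, which makes serotonin in the gland, stood at 9.45 CPM in KO replicate 1, above 5.90, 1.64 and 1.81 CPM in WT. *Rspo1* (12.1 CPM) and *Id4* (12.7 CPM) also lay above every WT library. *Calca* stood at 1.59 CPM, below 2.41, 2.09 and 9.54 CPM in WT, and the other tested genes of the list lay within the WT range.

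Fibroblast markers (8, none at 0) summed to 991 to 2783 CPM in WT and 690 to 2987 CPM in KO libraries, adipocyte markers (8, none at 0) to 2795 to 4075 and 3138 to 6058 CPM, endothelial markers (8, none at 0) to 390 to 525 and 340 to 579 CPM, and myeloid markers (8, none at 0) to 393 to 1530 and 1086 to 2649 CPM. The myeloid sums include *Cd14*, also a luminal progenitor marker here, at 135, 1299 and 382 CPM in WT and 680, 1648, 2203 and 2262 CPM in KO libraries. In KO replicate 4, where *Cd14* was highest, the median deviation of the 8 myeloid markers from their WT mean was −0.41, the lowest of the 7 libraries. Lymph node stroma markers (6, with *Cxcl13*, *Ccl19* and *Ccl21a* at 0 in some libraries) summed to 15.2 to 31.8 CPM in WT and 14.0 to 56.7 CPM in KO libraries.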
